A study of Mus musculus with 3 samples.

Results

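Wnt ligands, a Wnt receptor, an R-spondin, the Lgr receptors and a Wnt target gene were followed across the cells of the mouse anorectal junction, the border between columnar colon and squamous anal epithelium. The 10 genes were chosen by symbol and are a small part of the 31053 genes counted: the ligands Wnt3, Wnt4, Wnt5a, Wnt7b and Wnt10a, the receptor Fzd10, the secreted amplifier Rspo3, the R-spondin receptors Lgr5 and Lgr6, and the target and feedback gene Axin2. All mice were C57Bl/6 and were bought at 6 weeks of age. Day 0 mice were untreated, and the day 7 and day 42 mice had drunk 3% dextran sulfate sodium (DSS), which damages the colonic epithelium, for 6 days from day 0. Distal colon and anus of 5 mice were pooled into 1 single-cell 3' library per day, so there was no replicate, no test between days was possible, and p-values are not given. Differences between days are therefore differences between 3 libraries.

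Wnt proteins are lipid-modified, short-range signals that bind Frizzled receptors together with Lrp5 or Lrp6, and in the canonical pathway they let beta-catenin accumulate and switch on targets with TCF and LEF factors. R-spondins bind Lgr4, Lgr5 or Lgr6 and keep Frizzled receptors on the cell surface by removing the ubiquitin ligases Znrf3 and Rnf43. In the colon crypt, Wnt and R-spondin from the stroma sustain Lgr5+ stem cells, and Axin2 is a negative regulator that the pathway itself induces. In skin, Lgr5 and Lgr6 mark different stem cell pools of the hair follicle and sebaceous gland, and basal keratinocytes make several Wnt ligands.

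The start sites of Axin2, the pathway target, and Lgr6, an R-spondin receptor known from skin epithelium, are shown because both genes are followed below. RefSeq promoter windows (GRCm38.p6) were found for 5 of the 10 genes, Axin2, Lgr6, Wnt3, Wnt4 and Fzd10. The 100 bases before the RefSeq start are printed 5′ to 3′ on the gene's strand, with each GC box (GGGCGG on either strand) in capitals. Axin2 lies at chr11:108920249-108920348 on the plus strand and Lgr6 at chr1:135105277-135105376 on the minus strand.
Axin2: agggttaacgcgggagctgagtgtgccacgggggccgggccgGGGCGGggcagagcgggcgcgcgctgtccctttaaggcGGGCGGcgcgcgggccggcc
Lgr6: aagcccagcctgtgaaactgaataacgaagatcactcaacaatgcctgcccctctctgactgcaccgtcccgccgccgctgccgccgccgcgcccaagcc
Over 250 bases before the start, G and C made up 69.2% of the Axin2 window and 65.2% of the Lgr6 window. The Axin2 window held 2 GC boxes, both within the printed bases, and the Lgr6 window held 1, outside them. A GC box was found in 32.7% of 32851 windows of that length. The TCF/LEF core CTTTGA, searched on both strands, was in none of the 5 windows and in 13.8% of all windows, which says only that these letters are not there.

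The day 0, day 7 and day 42 libraries held 11037, 14376 and 11667 cells, with medians of 5995, 6217.5 and 5708 unique molecular identifiers (UMIs, each a captured molecule) per cell. The authors' 29 clusters carry 14 cell type names. Keratinocytes, the squamous class, numbered 3316, 9035 and 7970 at days 0, 7 and 42. Columnar cells (colonocytes, secretory colonocytes and enteroendocrine cells) numbered 4306, 1062 and 1680, and fibroblasts 1436, 316 and 222. Among the named cell types, keratinocyte, fibroblast, T cell and smooth muscle markers were each highest in the cell type of that name. Cdx2 was low in colonocytes, while Krt8, Epcam and Car1 were high there. Levels are given as CPM, the UMIs of a gene per 1e+06 UMIs of the same cells and library, with exact Poisson 95% intervals that cover counting error only and not variation between mice. T cells served as the gauge of free RNA for every gene but Axin2, which T cells may express. At days 0, 7 and 42 they held 7.24, 24.1 and 15.05 CPM of Wnt4, 1.81, 0 and 15.05 of Wnt10a, 0, 9.04 and 0 of Wnt5a, and no UMI of Rspo3, Lgr5 or Lgr6. A cell barcode occurring in more than 1 library was found 139 times, and leaving out those cells changed no count of genes past 2-fold given below.

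**Figure D1:**
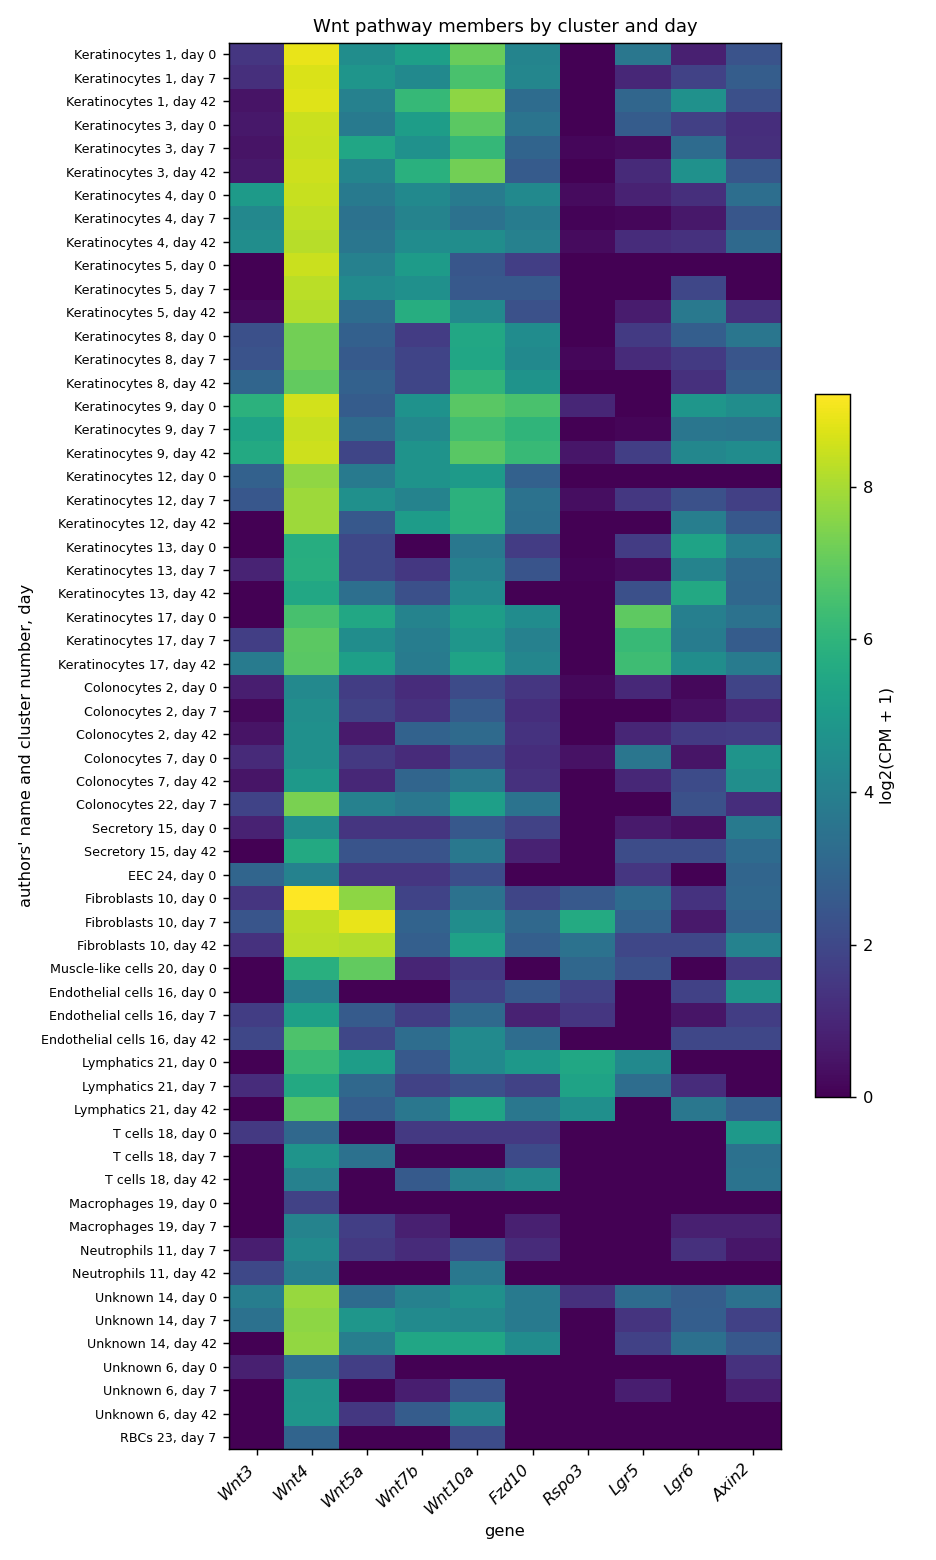
Level of each of the 10 genes (columns) in every authors' cluster with at least 50 cells on a day (rows), as log2(CPM + 1) by colour. Wnt4 is bright in most squamous clusters and in fibroblasts, Wnt3 is bright in clusters 9 and 4, and Lgr5 in cluster 17.

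Wnt4 (ENSMUSG00000036856, GRCm38 chromosome 4, 137277489 to 137299726, plus strand) encodes a ligand of both canonical and other Wnt signalling. It was high in most squamous clusters and in fibroblasts, and low in columnar cells. Lymphatic cells held 73.4, 47.0 and 109 CPM at days 0, 7 and 42, and endothelial cluster 16 held 14.5, 36.2 and 98.4. Muscle-like cells held 55.7 CPM (42.5 to 71.7) at day 0 and 289 (216 to 379) at day 7, the latter from 52 UMIs in 18 of 41 cells, and at day 42 their 24 cells had 0 UMIs, which allows up to 60.8 CPM. Keratinocytes held 304 CPM (298 to 310) at day 0, 288 (285 to 290) at day 7 and 347 (342 to 352) at day 42. These levels lay within a log2 ratio of 0.19 of day 0 (-0.08 at day 7 and 0.19 at day 42). Median-of-ratios scaling moved both values up, day 7 to 0.10 and day 42 further from day 0. At day 0, 75.3% of keratinocytes had a Wnt4 UMI at their own depth. Among squamous clusters at day 0 the level ran from 52.8 CPM in cluster 13 to 479 in cluster 1 (458 to 501), which is led by S100a4, Igfbp7, Wnt10a and Krt15. In cluster 1 it was 412 at day 7 and 436 at day 42. Clusters 3, 4, 5 and 9 lay between 349 and 385 CPM at day 0, and the intervals of 3, 4 and 5 overlapped.

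Fibroblasts held 592 CPM of Wnt4 (574 to 611) at day 0, 323 (297 to 350) at day 7 and 305 (265 to 349) at day 42. The day 7 and day 42 levels overlapped each other and lay below day 0, with log2 ratios of -0.87 (-1.0 to -0.75) and -0.96 (-1.16 to -0.75). Columnar cells held 22.2, 39.1 and 29.0 CPM at days 0, 7 and 42, and T cells, from 4, 8 and 3 UMIs, held 7.24, 24.1 and 15.05. Most of the difference at day 7 sat in cluster 22, 279 colonocytes led by the neutrophil genes S100a9 and S100a8, which held 164 CPM of Wnt4 (137 to 195). Without that cluster the columnar log2 ratio at day 7 was 0.28 and not 0.79.

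Wnt10a (ENSMUSG00000026167, chromosome 1, 74791516 to 74804179, plus strand) encodes a canonical ligand known for its part in skin, hair and tooth formation. It was a gene of basal and dividing squamous cells, highest in clusters 1, 3 and 9. In each of these it was lower at day 7 than at day 0, and in clusters 1 and 3 it was higher at day 42. Keratinocytes held 62.0 CPM (59.4 to 64.7) at day 0, 52.3 (51.1 to 53.6) at day 7 and 110 (108 to 113) at day 42. Cluster 1 held 137 CPM (126 to 148) at day 0, 93.8 (86.6 to 101) at day 7 and 200.03 (194 to 206) at day 42. The 3 intervals did not overlap, and the day 42 level was 2.13-fold that of day 7 (1.96 to 2.32) and 1.46-fold that of day 0 (1.34 to 1.60).

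The dividing keratinocytes of cluster 3 (leading genes Ube2c and Birc5) followed the same order with 119, 69.1 and 150 CPM of Wnt10a. Cluster 9, led by H19, Smoc2 and Igfbp5, held 115 CPM (106 to 125) at day 0, 84.0 (79.0 to 89.1) at day 7 and 116 (102 to 131) at day 42, so days 0 and 42 overlapped there. Cluster 4, led by the suprabasal keratins Krt10 and Krt1, held only 13.2, 10.2 and 21.95 CPM. Day 42 also lay above day 0 in clusters 4 (1.66-fold, 1.27 to 2.17), 8 (1.43-fold, 1.11 to 1.82) and 5. In cluster 5 it was 4.33-fold (1.97 to 11.9), from 6 UMIs at day 0. At day 7 cluster 8 was level with day 0, with a log2 ratio of -0.08 (-0.30 to 0.14). Cluster 1 alone held 62.4% of all Wnt10a UMIs of the day 42 library, against 23.8% at day 0, when it had 443 cells and not 3043. Wnt10a is among the leading genes of cluster 1, which were ranked from these same counts. Its height there against other clusters is therefore no separate finding.

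Wnt7b (ENSMUSG00000022382, chromosome 15, 85535437 to 85582473, minus strand) encodes a ligand made by many epithelia. Its gene overlaps AU022754 on the other strand. Keratinocytes held 19.7 CPM (18.3 to 21.3) at day 0, 17.7 (17.01 to 18.5) at day 7 and 53.8 (51.9 to 55.7) at day 42. Day 42 stood apart from both other days, with a log2 ratio of 1.40 against day 0 (1.29 to 1.52) and 1.55 against day 7. The level was higher at day 42 in each of the 3 clusters where it was highest. It was 35.8, 19.6 and 70.6 CPM in cluster 1, 34.1, 24.5 and 56.0 in cluster 3, and 32.2, 23.8 and 51.9 in cluster 5, which is led by Psca, Ltf and Krt19. Within cluster 1 the day 42 level was 1.97-fold that of day 0 (1.66 to 2.36), less than the difference over all keratinocytes, and with equal weight for 9 clusters the log2 ratio was 0.53. Clusters 4 and 9 held 21.3 and 25.3 CPM at day 42, within the intervals of their day 0 levels of 19.5 and 24.9.

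Wnt3 (ENSMUSG00000000125, chromosome 11, 103774150 to 103817957, plus strand) encodes the canonical ligand that Paneth cells supply in the small intestine. Here it was a squamous gene, concentrated in clusters 9 and 4. Keratinocytes held 19.2 CPM (17.7 to 20.7) at day 0, 7.57 (7.10 to 8.06) at day 7 and 4.11 (3.61 to 4.67) at day 42, and these intervals did not overlap. Cluster 9 held 59.6 CPM (53.1 to 66.7) at day 0, 39.9 (36.5 to 43.6) at day 7 and 47.3 (38.6 to 57.4) at day 42. Cluster 4 held 31.4, 18.5 and 21.7 CPM. Clusters 9 and 4 together supplied most Wnt3 UMIs of every library, 42.1% each at day 0, 50.7% and 35.1% at day 7 and 41.4% each at day 42.

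The lower Wnt3 of the keratinocyte class was much smaller inside those clusters. At day 42 the log2 ratio against day 0 was -1.98 over all keratinocytes, but -0.33 in cluster 9 (-0.66 to -0.01) and -0.51 in cluster 4 (-0.83 to -0.20). At day 7 it was -1.24 over the class, -0.57 in cluster 9 and -0.73 in cluster 4. The mix of clusters moved with the day: at days 0, 7 and 42, clusters 9 and 4 had 596, 1007 and 456 and 697, 1315 and 656 cells, while clusters 1 and 5, low in Wnt3, had 443, 563 and 3043 and 87, 162 and 2153. With equal weight for 9 clusters the log2 ratios were -0.47 at day 7 and -0.18 at day 42. In that average small clusters count as much as large ones. Cluster 17 entered it with 0, 5 and 3 Wnt3 UMIs at days 0, 7 and 42, and cluster 12 with 1, 18 and 0. In columnar cells and fibroblasts Wnt3 stayed at 4.37 CPM or less.

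Fzd10 (ENSMUSG00000081683, chromosome 5, 128600844 to 128604093, plus strand), a Frizzled receptor for Wnt ligands, shared its highest cluster with Wnt3. Cluster 9 held 92.7 CPM (84.5 to 101) at day 0, 63.7 (59.4 to 68.3) at day 7 and 72.1 (61.3 to 84.3) at day 42. Days 7 and 42 overlapped, and both lay below day 0. The next keratinocyte clusters, 8 (led by Cst6 and Defb6), 17 (led by Cxcl14 and Postn) and 4, held 21.6, 21.1 and 19.6 CPM at day 0 with overlapping intervals. Over all keratinocytes Fzd10 was 27.7, 14.9 and 9.88 CPM on days 0, 7 and 42. The day 42 log2 ratio of -1.40 (-1.54 to -1.26) was -0.28 with equal weight for 9 clusters. Within clusters it was -0.91 in cluster 1 (-1.30 to -0.52), which held 3043 of the 7970 keratinocytes of day 42, -0.91 in cluster 3 (-1.45 to -0.35), -0.36 in cluster 9 (-0.62 to -0.10) and 0.22 in cluster 8 (-0.33 to 0.74). T cells held 1.81, 3.01 and 20.1 CPM, the last from 1 cell.

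**Figure D2:**
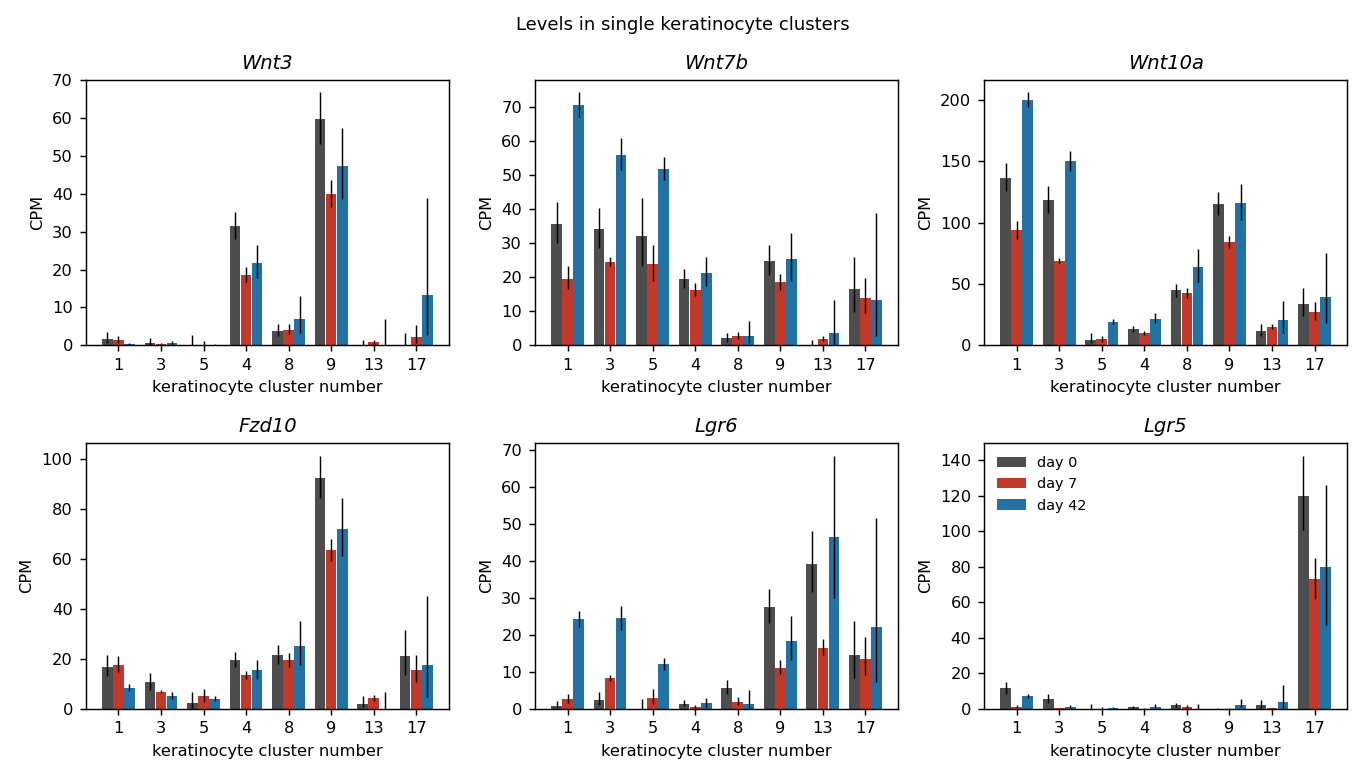
Levels (CPM, linear axes from 0) of 6 genes in 8 keratinocyte clusters; bars are day 0, day 7 and day 42, and lines are 95% counting intervals. Wnt3 and Fzd10 peak in cluster 9, Wnt10a and Wnt7b in cluster 1 at day 42, Lgr5 in cluster 17, and Lgr6 is near 0 in cluster 1 at day 0 and 24.3 CPM at day 42.

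Wnt5a (ENSMUSG00000021994, chromosome 14, 28504750 to 28527448, plus strand) encodes the best-known ligand of Wnt signalling that does not use beta-catenin. Its level was highest in fibroblasts on all 3 days, and the share of all its UMIs that fibroblasts held was 66.9%, 21.2% and 20.4% at days 0, 7 and 42, against 20.99%, 76.1% and 76.9% in keratinocytes. Fibroblasts held 199 CPM (189 to 210) at day 0, 478 (447 to 511) at day 7 and 282 (243 to 324) at day 42, with no overlap. The day 7 level was 2.40-fold that of day 0, a log2 ratio of 1.26 (1.13 to 1.38). The 10 fibroblasts with most Wnt5a UMIs held 38.5% of them at day 7 and 9.21% at day 0, and without these cells the log2 ratio was 0.85, under 2-fold. Muscle-like cells came next with 125 CPM at day 0 (105 to 148). The Wnt5a gene overlaps Gm2670 on the other strand.

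A second site of Wnt5a, at day 7, was the dividing keratinocytes of cluster 3. Keratinocyte cluster 17 lay above it on the other days. It held 44.9, 22.2 and 35.4 CPM at days 0, 7 and 42, from 49, 49 and 8 UMIs. Cluster 3 held 12.997 CPM (9.65 to 17.1) at day 0, 42.5 (40.8 to 44.2) at day 7 and 17.2 (14.7 to 20.1) at day 42. Day 7 stood apart, 3.27-fold above day 0 (2.47 to 4.42), and days 0 and 42 overlapped. At day 7 this cluster had 1983 cells and 57.3% of the library's Wnt5a UMIs, more than the 21.2% of fibroblasts. A Wnt5a UMI was seen in 55.9% of its cells at day 7 (median 25857 UMIs per cell) and in 15.6% at day 0 (median 13704). Thinned to 1000 UMIs per cell, the shares were 3.78% (2.99 to 4.72) and 1.12% (0.231 to 3.22), whose intervals overlap, against 0.926% of T cells at day 7. In cluster 1 Wnt5a held 21.8, 26.8 and 15.5 CPM, and days 0 and 7 overlapped. Over the whole keratinocyte class the day 7 log2 ratio of 0.97 (0.83 to 1.11) was just under 2-fold, 1.14 with median-of-ratios scaling and 0.24 with equal weight for 9 clusters.

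Rspo3 (ENSMUSG00000019880, chromosome 10, 29452416 to 29535867, minus strand) encodes the R-spondin that stromal cells supply to the colon crypt. It was found mainly in fibroblasts, lymphatic cells and muscle-like cells, the last at 7.66 CPM over all days. Columnar cells held at most 0.273 CPM and keratinocytes at most 0.206 on any day, from at most 12 UMIs. Fibroblasts held 4.90 CPM (3.35 to 6.91) at day 0, 48.6 (39.1 to 59.9) at day 7 and 10.2 (4.11 to 21.05) at day 42, from 32, 89 and 7 UMIs. The day 7 level stood apart, 9.94-fold above day 0, a log2 ratio of 3.07 (2.54 to 3.61). The 10 cells with most UMIs held 80.9% of the day 7 UMIs, and without such cells in either library the log2 ratio was 1.44. A Rspo3 UMI was seen in 2.02%, 8.54% and 2.70% of fibroblasts at days 0, 7 and 42, at median depths of 4366, 5015 and 2645.5 UMIs, and in no T cell. In cells thinned to 1000 UMIs the shares were 0.687%, 2.47% and 2.46%, from 9, 7 and 5 cells, and the intervals of all 3 days overlapped.

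Lymphatic cells held 44.1 CPM of Rspo3 (20.1 to 83.6) at day 0, 39.4 (26.7 to 55.9) at day 7 and 23.04 (6.28 to 59.0) at day 42, all overlapping, from 9, 31 and 4 UMIs. Cells named endothelial held 2.37, 1.62 and 0 CPM, from 1, 4 and 0 UMIs. Rspo3 overlaps Gm20276 on the same strand, so its counts are uncertain.

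**Figure D3:**
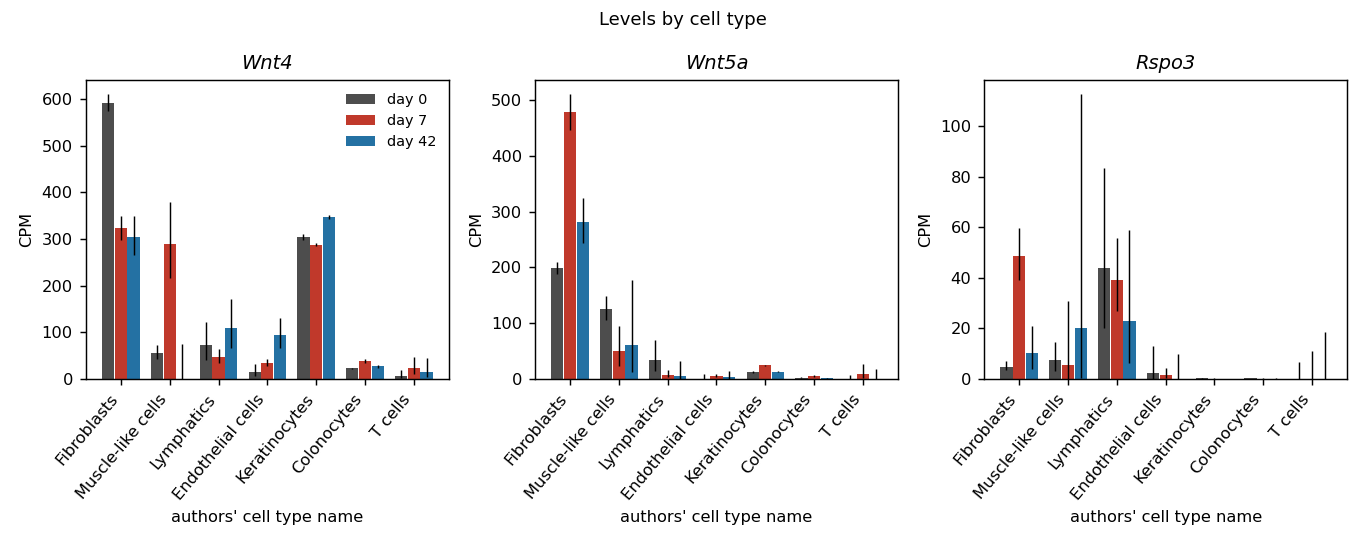
Levels (CPM, linear axes from 0) of Wnt4, Wnt5a and Rspo3 in 7 cell types by day, with 95% counting intervals as lines. Fibroblast Wnt5a runs 199, 478 and 282 CPM and fibroblast Rspo3 4.90, 48.6 and 10.2, while Wnt4 is high in fibroblasts and keratinocytes; muscle-like cells numbered 296, 41 and 24.

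Lgr5 (ENSMUSG00000020140, chromosome 10, 115450311 to 115587780, minus strand) encodes the R-spondin receptor that marks crypt base stem cells and part of the hair follicle. Both sites were present at day 0, and the squamous one kept more of its level at days 7 and 42. Cluster 7, the dividing colonocytes led by Ttr, Ube2c and Stmn1, held 11.2 CPM at day 0 (10.0 to 12.6), with a UMI in 8.84% of 1809 cells and in no T cell. At day 7 that cluster was down to 33 cells with 0 Lgr5 UMIs, and at day 42 its 412 cells held 5 UMIs, or 1.05 CPM (0.340 to 2.45), 10.7-fold lower than at day 0 (4.54 to 33.2). Over all columnar cells there were 321 UMIs at day 0, 0 at day 7 and 14 at day 42. At day 0 that was 7.31 CPM (6.54 to 8.16), so day 7 was at least 21.7-fold lower at the floor of 3 counts, and 17.6-fold lower at the near end of the 95% interval of the ratio. Day 42, with 1.25 CPM, was 5.84-fold lower (3.43 to 10.8). The day 42 difference was -1.88 on the log2 scale over all columnar cells and -2.16 among colonocytes alone. The value over all columnar cells was under 2-fold with equal weight for 3 clusters (-0.92) and with 10 CPM added (-0.62).

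In keratinocytes Lgr5 was highest in cluster 17, which is led by Cxcl14, Postn and the hair follicle genes Tchh and Krt71. It held 120 CPM (100.4 to 142) at day 0, 72.8 (62.0 to 85.0) at day 7 and 79.7 (47.2 to 126) at day 42, from 131, 161 and 18 UMIs. Days 7 and 42 overlapped, as did days 0 and 42. This cluster held 21.3%, 68.8% and 8.11% of the library's Lgr5 UMIs at days 0, 7 and 42, and cluster 1 held 68.0% at day 42. Cluster 1 held 11.51 CPM (8.46 to 15.3) at day 0, 1.04 (0.419 to 2.15) at day 7 and 7.33 (6.21 to 8.60) at day 42. It came next among keratinocytes at days 0 and 42, while at day 7 clusters 12 and 8 held 1.83 and 1.19 CPM. Over all keratinocytes the levels were 6.59, 1.59 and 3.53 CPM, with a day 7 log2 ratio of -1.55 (-1.75 to -1.34) that became -0.80 with equal weight for 9 clusters. The gene overlaps A930009A15Rik on the other strand.

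Lgr6 (ENSMUSG00000042793, chromosome 1, 134983301 to 135105276, minus strand) encodes the R-spondin receptor of skin stem cells above the hair bulge and of sebaceous glands. At day 0 it was almost absent from cluster 1, and at day 42 it was spread over that cluster. Cluster 1 held 3 Lgr6 UMIs at day 0, 17 at day 7 and 500 at day 42, or 0.735 CPM (0.152 to 2.15), 2.53 (1.47 to 4.05) and 24.3 (22.2 to 26.5). The day 42 level was 33.0-fold that of day 0, with a counting interval of 11.2 to 161 that the 3 UMIs of day 0 make wide, and 9.60-fold that of day 7 (5.93 to 16.6). A UMI was seen in 0.677% of cells at day 0 and 13.1% at day 42, although median depth was higher at day 0 (9129 UMIs against 6186). Thinned to 1000 UMIs, the shares were 0 of 443 cells (up to 0.829%) and 2.17% (1.68 to 2.75). The 10 cells with most UMIs held 6.80% of the day 42 UMIs, and no T cell had one on any day.

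Clusters 3 and 5 showed the same order of days for Lgr6. Cluster 3 held 2.34 CPM (1.07 to 4.44) at day 0, 8.38 (7.64 to 9.18) at day 7 and 24.4 (21.4 to 27.8) at day 42, so day 42 was 10.4-fold above day 0 (5.41 to 23.1). Cluster 5 held 0, 2.90 and 12.2 CPM, from 0, 10 and 226 UMIs. Its interval for day 7 over day 0 began at 0.87-fold, so those days were not resolved there. Clusters 13 and 9, the 2 highest at day 0, had a different order, lowest at day 7. Cluster 13, with the sebaceous gene Scd1 among its leading genes, held 39.3 CPM (31.7 to 48.1) at day 0, 16.5 (14.5 to 18.7) at day 7 and 46.4 (30.0 to 68.4) at day 42. Cluster 9 held 27.4, 11.1 and 18.4 CPM. Cluster 8 was lower than day 0 on both later days, with 5.68, 1.95 and 1.41 CPM from 35, 18 and 2 UMIs and a day 42 log2 ratio of -1.47 (-2.57 to -0.04).

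At day 42 clusters 3, 1, 17 and 9 followed cluster 13, at 24.4, 24.3, 22.1 and 18.4 CPM, and those 4 intervals overlapped. Over all keratinocytes Lgr6 was 9.09 CPM (8.10 to 10.2) at day 0, 7.46 (6.99 to 7.95) at day 7 and 17.9 (16.9 to 19.1) at day 42, and the day 42 log2 ratio against day 0 was 0.91 (0.74 to 1.08). Columnar cells held at most 2.68 CPM and fibroblasts at most 2.92.

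Axin2 (ENSMUSG00000000142, chromosome 11, 108920349 to 108950783, plus strand), whose start is printed above, was lower at day 7 over all columnar cells and in several keratinocyte clusters. It overlaps Gm11670 on the other strand. Cluster 7 held 26.2 CPM (24.3 to 28.2) at day 0 and 22.2 (18.2 to 26.9) at day 42, which overlap, and 58.3% of all Axin2 UMIs of the day 0 library. Its 33 cells at day 7 held 6 UMIs, or 5.91 CPM (2.17 to 12.9). Over all columnar cells there were 793, 16 and 127 UMIs, or 18.1 CPM (16.8 to 19.4) at day 0, 1.80 (1.03 to 2.92) at day 7 and 11.4 (9.47 to 13.5) at day 42. Day 7 was 10.1-fold lower than day 0, and day 42 was 6.33-fold above day 7.

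Cluster 2, the single columnar cluster of 50 or more cells on days 0 and 7, held 2.75, 1.03 and 2.14 CPM of Axin2 and 1.10, 0 and 0.974 of Lgr5, all under the 5 CPM minimum used for ratios. The 33 cells of cluster 7 left at day 7 were under the minimum of 50 cells used elsewhere. In them Axin2 was lower than at day 0 (5.91 against 26.2 CPM). Lgr5 had 0 UMIs, which allows up to 2.96 CPM at the floor of 3 counts. These cells had a median of 29614 UMIs, against 4017 over all columnar cells of day 7. They held 56.2 CPM of Wnt4 (42.5 to 72.7), against 23.8 in cluster 7 at day 0. Whether they are mixed with squamous cells was not tested. By contrast with Lgr5, whose level in cluster 7 at day 42 was 10.7-fold below day 0, the Axin2 level there was 1.18-fold below it (0.962 to 1.46).

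In keratinocytes Axin2 was highest in cluster 9, with 21.8 CPM (17.9 to 26.2) at day 0, 10.7 (9.03 to 12.7) at day 7 and 21.1 (15.5 to 28.2) at day 42. Day 7 lay below both others, and days 0 and 42 overlapped. Clusters 8, 4 and 13 were also lower at day 7 than at day 0, with log2 ratios of -1.17 (-1.66 to -0.67), -0.87 (-1.25 to -0.48) and -0.75 (-1.27 to -0.19), beside -0.95 (-1.30 to -0.60) in cluster 9. Clusters 1 and 3 were not lower, at 0.33 (-0.39 to 1.06) and 0.05 (-0.79 to 0.77). Outside the epithelium, endothelial cluster 16 held 26.6, 2.16 and 2.89 CPM of Axin2 at days 0, 7 and 42, from 11, 5 and 1 UMIs. Over the class the levels were 9.91, 4.07 and 4.25 CPM, so the class was as low at day 42 as at day 7 while cluster 9 was not. The class log2 ratio at day 42 was -1.06 (-1.26 to -0.85) and -0.03 with equal weight for 9 clusters. In that average clusters 17 and 12 count as much as the others, on 3 and 1 UMIs at day 42. Fibroblasts held 7.34 CPM (5.41 to 9.74) at day 0, 6.56 (3.39 to 11.46) at day 7 and 16.1 (8.01 to 28.7) at day 42, the last from 11 UMIs in 11 cells. T cells held 30.8, 12.1 and 10.0 CPM from 17, 4 and 2 UMIs.

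**Figure D4:**
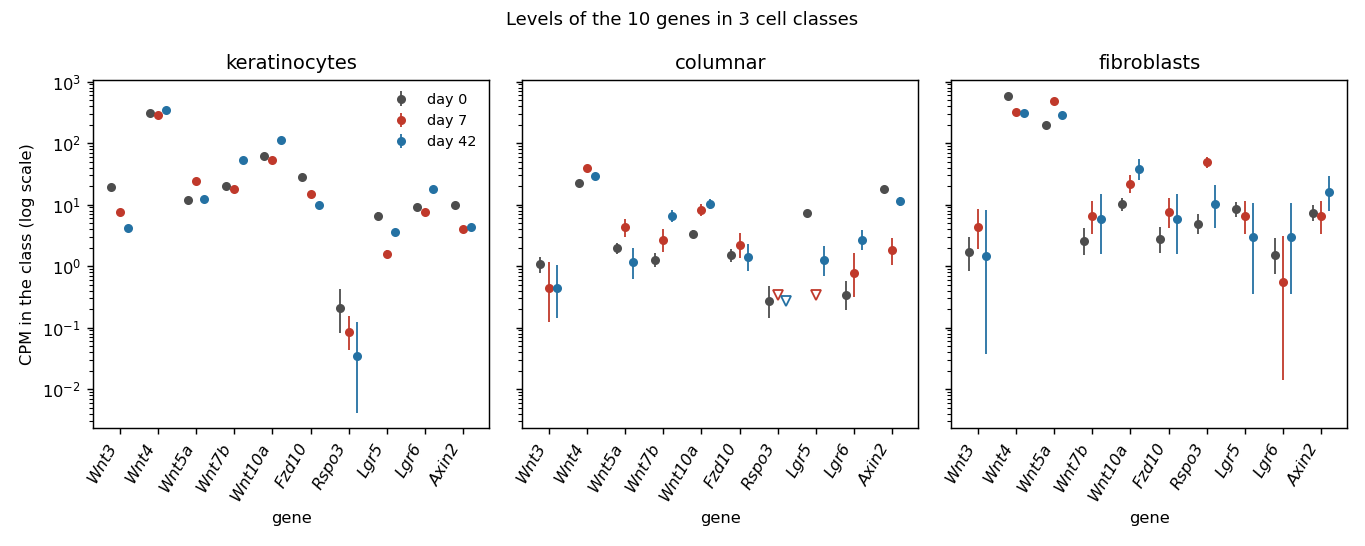
Levels (CPM, log axis) of the 10 genes in keratinocytes, columnar cells and fibroblasts by day; points are levels, lines 95% counting intervals, and open triangles mark a class with 0 UMIs, drawn at 3 counts. Columnar Lgr5 is 7.31 CPM at day 0, at 0 UMIs on day 7 and 1.25 CPM at day 42, and columnar Axin2 18.1, 1.80 and 11.4.

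The 10 genes were then set against all genes of the same class. A gene was compared where it had at least 5 CPM in either library, and counted where the ratio, with 1 CPM added to both sides, was 2-fold or more. In keratinocytes at day 7 against day 0, 9 of the 10 were compared. None was higher by 2-fold (3.04% of 10088 genes were), and 3 were lower, Wnt3, Lgr5 and Axin2 (4.06% were). Their median log2 ratio was -0.25, against -0.04 over all genes. For day 42 over day 0, Wnt7b was higher (4.69% of 10114 genes were) and Wnt3, Fzd10 and Axin2 lower (6.15% were), with a median of 0.05 against -0.07. With equal weight for 9 clusters none of the 9 passed 2-fold in either of these comparisons. With day 42 over day 7, Wnt7b, Wnt10a and Lgr6 of 7 compared were higher (4.11% of 9823 genes were) and none was lower (3.49% were), with a median of 0.27 against -0.05. With equal weight Lgr6 alone passed, at 1.30. Median-of-ratios scaling moved keratinocyte log2 ratios up, that of Wnt4 from -0.08 to 0.10 at day 7 and from 0.19 to 0.38 at day 42. At day 42 against day 0, 3 genes, Wnt7b, Wnt10a and Lgr6, were then higher.

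In columnar cells at day 7 against day 0, 4 genes were compared. Wnt10a was higher (6.6% of 10126 genes were), and Lgr5 and Axin2 were lower (8.57% were), with a median of -0.99 against -0.21 over all genes, and median-of-ratios scaling moved Wnt4 there from 0.79 to 0.99. Wnt10a was at 3.35 CPM at day 0 and 8.19 CPM (6.42 to 10.3) at day 7. T cells held 1.81 CPM from 1 UMI at day 0, and 0 UMIs at day 7, which allows up to 9.04 CPM at the floor of 3 counts. Without cluster 22 the columnar log2 ratio of Wnt10a was 0.59 and no longer 1.08. For day 42 over day 0, Wnt7b and Wnt10a of 5 compared were higher (2.5% of 9962 genes were) and Lgr5 lower (1.78% were), with a median of 0.37 against -0.05. Wnt7b was 1.28, 2.69 and 6.53 CPM at days 0, 7 and 42, against 5.02 in T cells at day 42. Wnt10a, at 10.2 CPM at day 42, lay below the T cell level of that day given above. Neither gene was past 2-fold once the 5% of cells with the highest doublet scores were left out. With day 42 over day 7, Wnt7b and Axin2 of 4 compared were higher (3.66% of 9807 genes were) and none was lower (3.34% were), with a median of 0.66 against 0.14. Wnt7b turned to -0.23 without the highest doublet scores. Keratinocyte markers summed to 732, 2368.5 and 2052 CPM in columnar cells at days 0, 7 and 42, none of the 6 markers at 0, and neutrophil markers to 0.797, 2217 and 103 CPM, with 1 of 4 at 0 at day 0. Their part in these results was not tested.

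In fibroblasts at day 7 against day 0, 8 genes were compared. Wnt5a, Wnt7b, Wnt10a, Fzd10 and Rspo3 were higher (6.46% of 11188 genes were) and none was lower (6.04% were), with a median of 1.06 against -0.07 over all genes. Wnt7b and Fzd10 rested on 12 and 14 UMIs at day 7, all within 10 cells. Without the 10 cells with most UMIs of each gene, Rspo3 stayed past 2-fold, and Wnt5a (0.85) and Wnt10a (0.35) did not. At day 42 against day 0, Wnt10a and Axin2 were higher (5.39% of 11201 genes were) and Lgr5 lower (5.94% were), with a median of 0.90 against 0. Wnt10a was at 0.79 without those 10 cells, Axin2 rested on 11 UMIs in 11 cells, and Lgr5 on 2 UMIs at day 42 against 55, with an interval of -2.84 to 0.35 that includes 0. For day 42 over day 7, Axin2 was higher (7.04% of 11226 genes were) and Rspo3 lower (7.13% were), with a median of -0.24 against 0.07. That Axin2 ratio set 11 UMIs against 12, its interval of -0.03 to 2.33 includes 0, and it was under 2-fold with 10 CPM added (0.65). Keratinocyte markers in fibroblasts summed to 1231, 1905 and 4617 CPM, none of 6 at 0, while Wnt10a there was 10.1, 21.9 and 37.9 CPM, and the part of the first in the second was not tested.

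**Figure D5:**
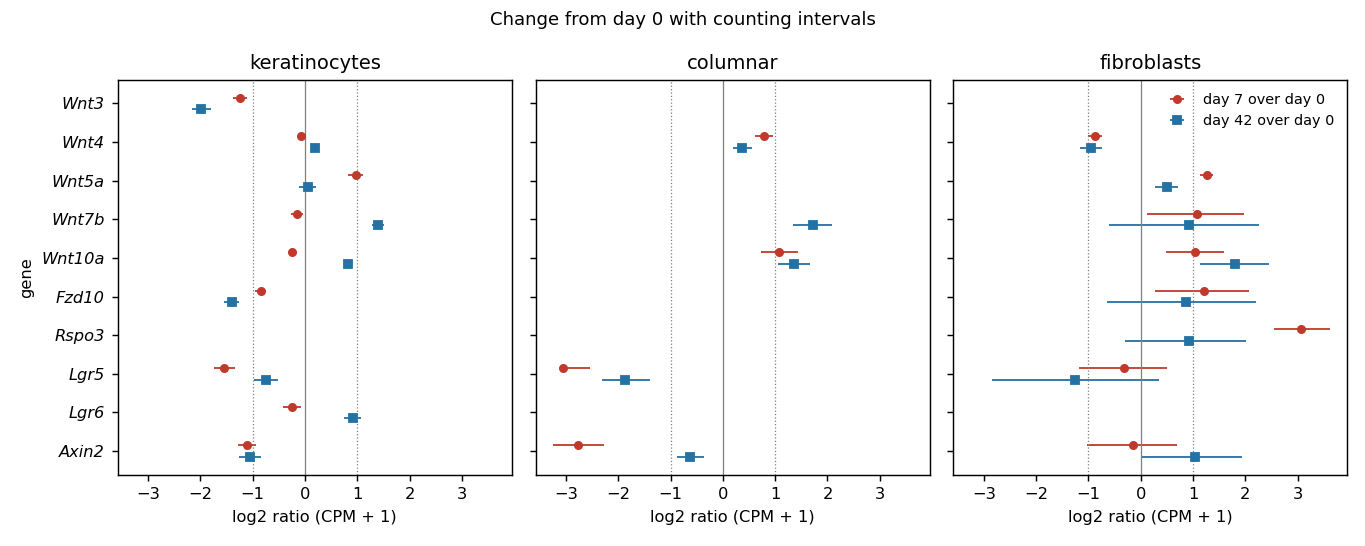
Log2 ratio of day 7 and of day 42 to day 0, with 1 CPM added to both, for each gene with at least 5 CPM in either library; lines are 95% counting intervals and dotted lines 2-fold. Keratinocyte Wnt3 reaches -1.98 at day 42, columnar Axin2 -2.77 and fibroblast Rspo3 3.07 at day 7; columnar Lgr5 at day 7 has 0 UMIs, so its position depends on the added CPM.

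Another 74 genes of the pathway, in 7 lists, were counted in the same way, and those past 2-fold with at least 20 CPM in either library are named. In keratinocytes, 3 of 39 compared were higher and 5 lower at day 7 against day 0, where 3.04% and 4.06% of all genes were. At day 42 the counts against day 0 were 3 of 40 higher and 8 lower, where 4.69% and 6.15% of all genes were. Porcn, the enzyme that adds the lipid to Wnt ligands, was 6.77 CPM at day 0 and 27.0 at day 42, a log2 ratio of 1.85 (1.67 to 2.03). Wnt16, another ligand, was 8.97 and 20.5 CPM. Among secreted inhibitors Sfrp1 was 67.7, 52.6 and 21.7 CPM at days 0, 7 and 42, and Sostdc1, which binds Lrp co-receptors, was highest at day 7 with 37.0, 79.1 and 14.1 CPM. Tnfrsf19, a Wnt target, was lower on both later days, with 27.9, 8.62 and 7.69 CPM, and the receptor Fzd7 with 24.7, 11.7 and 11.3. Smoc2 was 65.6 CPM at day 0 and 21.4 at day 42. It is a leading gene of cluster 9, where Wnt3 and Fzd10 were highest. With day 42 over day 7, 1 of 39 was higher and 3 lower (4.11% and 3.49% of all genes).

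In columnar cells 4 of 33 other genes were higher and 6 lower at day 7 against day 0, where 6.6% and 8.57% of all genes were. Smoc2, a marker of crypt stem cells, was 22.9 and 6.29 CPM, a log2 ratio of -1.71 (-2.06 to -1.37), and Ephb3, a receptor of the lower crypt, was 20.3 and 7.63. Higher were the receptor Fzd1, at 12.6 and 29.9 CPM, and Kremen2, a receptor for Dkk inhibitors, at 12.9 and 48.0. At day 42 against day 0 the single gene of 31 past 2-fold (2.5% of all genes were higher and 1.78% lower) was Ascl2, a transcription factor of crypt stem cells, under the naming level and named after its values were seen. It was 13.01 CPM at day 0, 0.224 at day 7 and 4.47 at day 42. For day 42 over day 7, none of 31 was higher and 3 were lower (3.66% and 3.34% of all genes), Fzd1 among them at 29.9 and 14.05 CPM.

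In fibroblasts 13 of 55 other genes were higher and 7 lower at day 7 against day 0, where 6.46% and 6.04% of all genes were. Of the secreted inhibitors, 7 of 10 compared were higher at day 7 and 1 was lower, with a median log2 ratio of 1.69. Sfrp1, which binds Wnt ligands, was 159 and 505 CPM, a log2 ratio of 1.66 (1.54 to 1.79). Sfrp4 was 27.4 and 180.3 CPM, Dkk2 27.5 and 92.9, Wif1 9.79 and 39.9, and Sostdc1 4.59 and 33.3. For these 4 genes 10 cells held 78.1% to 96.7% of the day 7 UMIs. Rspo1, another R-spondin, was 8.57 and 48.6 CPM, Ror2, a Wnt5a receptor, 10.9 and 31.2, Wnt16 2.91 and 21.9, and Smoc2 9.33 and 20.8. Lower at day 7 were the ligand Wnt5b, at 75.6 and 21.3 CPM, the transcription factor Lef1, at 102 and 20.8, Dkk3, at 215 and 92.4, Fzd7, at 28.9 and 9.29, and Ccnd1, at 112 and 54.1.

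With day 42 over day 0, 9 of 56 other genes were higher in fibroblasts and 3 lower, where 5.39% and 5.94% of all genes were. Wif1 was 9.79 and 216 CPM, Notum, an enzyme that removes the lipid of Wnt, 1.68 and 48.2, Nkd1 7.80 and 37.9, Nkd2 9.33 and 59.8, and Apcdd1 0.765 and 27.7. Wnt16 was 2.91 and 23.3 CPM and Fzd6 6.88 and 20.4. For these 7 genes 10 cells held 60.6% to 87.5% of the day 42 UMIs, out of 222 fibroblasts. At day 42 against day 7, 10 of 55 were higher and 7 lower (7.04% and 7.13% of all genes). Lef1 returned to 102 CPM and Dkk3 was 247, while Sfrp1 was 165, Sfrp4 30.6, Rspo1 14.6 and Ror2 10.2 CPM.

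Likeness of pattern was measured as Pearson's r of log2(CPM + 1) over 60 groups (each authors' cluster on each day with at least 50 cells) for 12512 genes that reached 20 CPM in at least 1 group. The groups share 3 libraries and differ in depth, so r is a description and has no p. The genes most like Wnt3 were Hoxc4 (0.77), Hoxc8 (0.76) and Hoxc6 (0.75), all of the Hoxc cluster of body position genes. Wnt10a was most like Col17a1 (0.89), a hemidesmosome collagen of basal keratinocytes, then Vsnl1 (0.88) and Ptn (0.85), and Fzd10 also most like Col17a1 (0.84), then the cadherin Cdh3 (0.83) and Ndufa4l2 (0.82). Wnt7b was most like Aqp3 (0.86), Cwh43 (0.85) and the basal keratin Krt5 (0.84). Wnt4 was most like Phlda3 (0.91), Pitx1 (0.89) and Meis2 (0.89).

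Wnt5a was most like the matrix genes Efemp2 (0.80) and Fbln1 (0.79) and the gene Tpbg (0.79), and Rspo3 like Kcnn3 (0.92), Dennd2a (0.90) and Gucy1b1 (0.89). Lgr5 was most like the tendon factor Scx (0.76), Gm973 (0.76) and Cntfr (0.75), and Lgr6 like Moxd1 (0.73), Ajuba (0.71) and Dzip1l (0.70). Axin2, present at low level in many cell types, was most like Metap1d, Etaa1 and Coq8a, each at 0.72. Among the 10 genes, the highest r were those of Wnt7b with Wnt4 (0.82), Wnt10a with Wnt4 (0.77) and Wnt10a with Wnt7b (0.75).

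In whole libraries, where the mix of cell types enters, Wnt10a was 26.3, 45.4 and 91.3 CPM at days 0, 7 and 42 and Wnt7b 8.49, 15.5 and 44.7. Their order of days differed from that inside cluster 1, where both were lower at day 7 than at day 0. Lgr5 was 6.88, 1.54 and 3.07 CPM and Axin2 13.6, 3.75 and 5.41. At this level, fewer cells of a type and less RNA per cell cannot be told apart.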

How the data were processed

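The files hold UMI counts per gene and cell of 37080 cells in 3 libraries, as the authors deposited them with no normalization. Per the submitters' processing notes, Cell Ranger 3.0.2 and mm10 were used. The authors' deposited size factors are a ratio, each cell's total over 5283.43. Clusters and cell type names are the authors'. Coordinates are from GENCODE M21 (GRCm38), a build that matches mm10.

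UMIs were summed per class, cluster and day as CPM, with exact Poisson 95% intervals. Shares have Clopper-Pearson 95% intervals. Ratios have exact conditional binomial intervals and 1 CPM added to both sides. All intervals and the floor of 3 counts for a gene at 0 cover counting error only. A gene was compared from 5 CPM in either library on, classes and clusters with at least 50 cells on both days. No test was run, since each day has 1 library. The 10 genes, the 7 lists (other Wnt ligands, receptors and co-receptors, R-spondin, Lgr and Fzd turnover, Wnt secretion, secreted inhibitors, transducers, feedback and target genes) and the cell type markers were chosen with earlier results of these data known. List genes were named by rule past 2-fold with 20 CPM in either library. The 3 genes most like each were named by Pearson's r. Doublets were kept. Scrublet called 420, 0 and 267 cells at days 0, 7 and 42, and as it called 0 cells at day 7, an alternative left out the top 5% (552, 719 and 583 cells). Other alternatives were a filter on cells (1000 UMIs, 500 genes, 20% mitochondrial UMIs), median-of-ratios scaling, the mean per cell, thinning to 1000 UMIs, 10 CPM added, no CPM minimum, leaving out the 10 cells with most UMIs, equal weight per cluster and colonocytes alone. Added after seeing the data were leaving out shared barcodes, cluster 12 or cluster 22. Ratios were tested on simulated data. Scripts ran in Python 3.11.15 with scipy 1.17.1, numpy 2.4.6, scanpy 1.11.5, pandas 2.3.3 and matplotlib 3.10.9.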

Additional observations from a re-analysis of the deposited data

Results flagged for a closer look

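At day 42 against day 0, the Axin2 log2 ratio had opposite signs in fibroblasts (1.03) and keratinocytes (-1.06), a difference of 2.09 that was not tested. The fibroblast value rested on 11 UMIs in 11 cells at day 42, and its interval was 0.03 to 1.93. Within keratinocyte clusters the ratio was -0.04 in cluster 9, -0.11 in cluster 1 and -0.20 in cluster 4, with intervals that include 0. It was -0.88 in cluster 8 (-1.89 to 0.06), -0.83 in cluster 13 (-2.39 to 0.54) and 1.26 in cluster 3 (0.35 to 2.03).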

How the results depend on the processing

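With 1 library per day there was no replicate to leave out. No paired analysis was possible because each day has 1 library and the shared number 1 pairs nothing. Of 585 alternative log2 ratios over 62 results, 8 changed sign where the value was past 2-fold, 162 others moved beyond the counting interval and 415 did not. Of 30 highest clusters, 27 were the same by the mean per cell. Of 192 alternative counts of genes past 2-fold, 60 moved.

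Keratinocytes, day 7 against day 0: 1 gene higher with median-of-ratios scaling or without the 10 top cells, 0 lower with 10 CPM added or equal cluster weight. Day 42 against day 0: 3 higher with median-of-ratios, 2 without the 10 top cells and 0 with equal weight; 1 lower with 10 CPM and 0 with equal weight. Day 42 against day 7: 1 higher with 10 CPM and 1 with equal weight.

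Columnar cells, day 7 against day 0: 2 higher without the top 5% Scrublet scores, 3 by the mean per cell or thinned, and 0 with 10 CPM, without the 10 top cells, with cluster 2 alone or without cluster 22; 1 lower with 10 CPM and 0 with cluster 2 alone, where fewer genes reach 5 CPM. Day 42 against day 0: 0 higher without the top 5%, thinned or with 10 CPM, and 1 by the mean per cell or without the 10 top cells; 0 lower with 10 CPM or equal weight. Day 42 against day 7: 1 higher without the top 5%, with median-of-ratios, by the mean per cell, thinned, without the 10 top cells or with cluster 2 alone, 0 with 10 CPM and 4 with no minimum; 1 lower without the top 5%, by the mean per cell or with no minimum, and 3 thinned. Wnt7b in the last comparison was -0.23 without the top 5%, -0.29 by the mean per cell and -0.26 thinned.

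Fibroblasts, day 7 against day 0: 2 higher thinned or with 10 CPM and 1 without the 10 top cells; 1 lower thinned or without the 10 top cells. Thinned, Wnt7b was -1.34 and Wnt10a -0.44. Without the 10 top cells Wnt7b was -0.56 and Fzd10 -0.70, values fixed by construction, since 10 cells or fewer held all their day 7 UMIs. Day 42 against day 0: 4 higher without the top 5%, 1 with median-of-ratios or 10 CPM and 0 without the 10 top cells, where Axin2 was -1.22, again by construction (11 UMIs in 11 cells); 2 lower without the top 5% or by the mean per cell and 0 with 10 CPM. Day 42 against day 7: 2 higher by the mean per cell, thinned or with no minimum, and 0 with 10 CPM or without the 10 top cells; 2 lower with median-of-ratios or no minimum, and 3 by the mean per cell or thinned. The cause was not tested. Equal weight sets aside the mix of clusters, but clusters with few cells and UMIs then count as much as large ones. Thinning leaves few UMIs of low genes. Of the 3 classes compared, fibroblasts had the fewest cells, 222 at day 42.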
